A study of Mus musculus with 15 samples.

Results

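The 7 genes studied here belong to imprinted regions: Meg3, Rian, Mirg, Dlk1, Igf2, H19 and Igf2r. They were followed in mouse liver through a diet that produces steatohepatitis and through treatment with SR9009. They are 7 of the 57132 gene identifiers in the deposited table of raw counts. The members were chosen by gene symbol with their values in view, above all the rise of Meg3 over Chow and its spread among the diet-fed libraries. Passing the filter on low counts were 5, Meg3 (ENSMUSG00000021268.19), Rian (ENSMUSG00000097451.12), Mirg (ENSMUSG00000097391.9), H19 (ENSMUSG00000000031.19) and Igf2r (ENSMUSG00000023830.15). Dlk1 (ENSMUSG00000040856.18) and Igf2 (ENSMUSG00000048583.18) did not.

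Male C57BL/6J mice, 8 weeks old at the start, gave bulk liver RNA. The Chow group ate standard chow. The Vehicle and SR9009 groups were fed CDA-HFD, a fat-rich diet without choline in which amino acids replace protein, for 18 weeks, and from week 12 both were injected intraperitoneally every day for 6 weeks. Vehicle mice received 15% Kolliphor in saline, and SR9009 mice received 100 mg/kg per day of SR9009, a synthetic agonist of the REV-ERB nuclear receptors of the circadian clock. The study asked whether SR9009 acts on liver fibrosis in this model. It held 10 Chow mice and 15 in each injected arm, of which 4 Chow, 5 Vehicle and 5 SR9009 libraries were used, each labelled as a separate mouse. Injections of Chow mice are not mentioned in the labels, so in comparisons with Chow diet and injection cannot be told apart.

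An imprinted gene is expressed mainly from the copy inherited from 1 parent. In the Dlk1-Dio3 region, the maternal copy gives the long noncoding RNAs Meg3, Rian and Mirg, which also carry small nucleolar RNAs and microRNAs, while the paternal copy gives Dlk1, a membrane protein of the Notch ligand type found on fetal liver progenitors, together with Rtl1 and Dio3. In the Igf2-H19 region, a shared control element directs the paternal copy to Igf2, a fetal growth factor, and the maternal copy to H19, a noncoding RNA. Igf2r encodes the receptor that removes IGF2 from the cell surface and carries it to lysosomes, and in mice it is expressed mainly from the maternal copy while the noncoding Airn is read from the paternal copy across it on the opposite strand. In rodent liver, Igf2, H19 and Dlk1 are abundant before birth and are silenced afterwards.

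Total counts per library ranged from 29950509 to 45542335. Levels are given as CPM, counts relative to the library total, with that total scaled by TMM, a factor that sets the typical gene to the same level in each library. The floor, the level that 3 counts would give, lay between 0.0607 and 0.124 CPM. Hepatocyte markers summed to between 77100 and 160000 CPM, with Alb the highest, as the tissue label states. Chemosensory receptor genes (1752 of the olfactory, vomeronasal or trace amine families) are known for their roles in sensory tissue, and those with at least 1 count numbered 58 to 76 in 4 diet-fed libraries and 150 to 231 in the other 6. The 4 with few were Vehicle 4, Vehicle 5, SR9009 1 and SR9009 3. Chow libraries had from 45 to 105. The labels name no batch that accounts for the difference. Whether counting used strand is not stated. Reads from Rtl1 and from the noncoding transcripts that cross it on the other strand therefore cannot be told apart, and neither can those of Igf2r and Airn or of Dio3 and Dio3os.

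The promoter of Meg3 is shown because Meg3, Rian and Mirg lie on the same strand of chromosome 12 and rose and fell together in the diet-fed libraries. The window runs from 250 bases before to 50 bases after the first RefSeq start of Meg3 (RefSeq, GRCm38.p6, chr12:109540746-109541045, + strand). Capitals mark matches to short motifs on either strand.

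Meg3 promoter: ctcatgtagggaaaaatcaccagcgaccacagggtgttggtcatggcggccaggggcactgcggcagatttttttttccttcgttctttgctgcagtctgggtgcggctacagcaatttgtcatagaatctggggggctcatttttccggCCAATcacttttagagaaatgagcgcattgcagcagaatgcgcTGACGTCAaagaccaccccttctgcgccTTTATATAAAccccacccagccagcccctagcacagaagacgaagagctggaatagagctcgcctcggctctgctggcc

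From left to right the capitals hold CCAAT at -100, the cyclic AMP response element TGACGTCA at -57, and a pair of overlapping TATAAA matches that begin at -29 and -25, 1 on each strand, counted from the start. Of 32851 RefSeq windows of the same length, 37.4% held CCAAT, 1.79% held TGACGTCA and 13.6% held TATAAA. The half-site that REV-ERB and other nuclear receptors recognise, AGGTCA, was in 16.3% of windows and not in this one, whereas the window of a second RefSeq start of Meg3 held it at -141. Of the members, 6 matched the table of promoters and H19 had no entry. In the window of Igf2r the E-box of the clock activators, CACGTG, lay at -48 and -7. Such an E-box was in 7.15% of all windows. The half-site lay at -11 of Igf2r. These matches describe letters and not binding.

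The host transcripts carry microRNAs, whose mature sequences are shown with the seed (bases 2 to 8) in capitals because the seed decides which targets a microRNA pairs with. Inside the RefSeq spans lay 1 hairpin for Meg3, 3 for Rian, 10 for Mirg, 1 for Igf2 and 1 for H19. The first and the last pair below are products of the Meg3 and H19 hairpins, and the middle pair share a seed, which no other pair of the Mirg set does.

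mmu-miR-770-5p: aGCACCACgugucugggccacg

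mmu-miR-453: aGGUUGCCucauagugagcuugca

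mmu-miR-496a-5p: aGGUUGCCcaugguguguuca

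mmu-miR-675-5p: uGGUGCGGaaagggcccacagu

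mmu-miR-675-3p: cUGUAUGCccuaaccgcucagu

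Libraries of long RNA do not measure mature microRNAs. Over the 14 libraries, the rows of these hairpins summed to 0 counts for Meg3, 14 for Rian, 30 for Mirg, 0 for Igf2 and 0 for H19, so nothing is said here of their levels.

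The comparison of Vehicle with Chow asks what the diet, with vehicle injections, did to these genes. The 3 maternal transcripts Meg3, Rian and Mirg were about 17 to 21 times as high in Vehicle as in Chow by fitted fold, and H19 rose from near the floor, whereas Igf2r did not pass the test. Of the 5 members tested, 4 were called, each higher in Vehicle (edgeR's quasi-likelihood test, adjusted p under 0.05). In Chow, H19 had at most 5 counts a library and Mirg at most 13. Both thus passed the filter through the diet-fed groups, which favoured a higher call for them. Dlk1 and Igf2 are not among the 5. Among the 18181 genes tested, 55.2% were called in this comparison, 29.8% higher and 25.4% lower. The median log2 fold change was 4.31 over the 5 members and 0.0235 over all genes tested. These members were proposed from the same libraries, so the calls are no independent evidence. In bulk liver, a change in the number of cells of a type and a change in RNA per cell cannot be told apart.

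**Figure D1:**
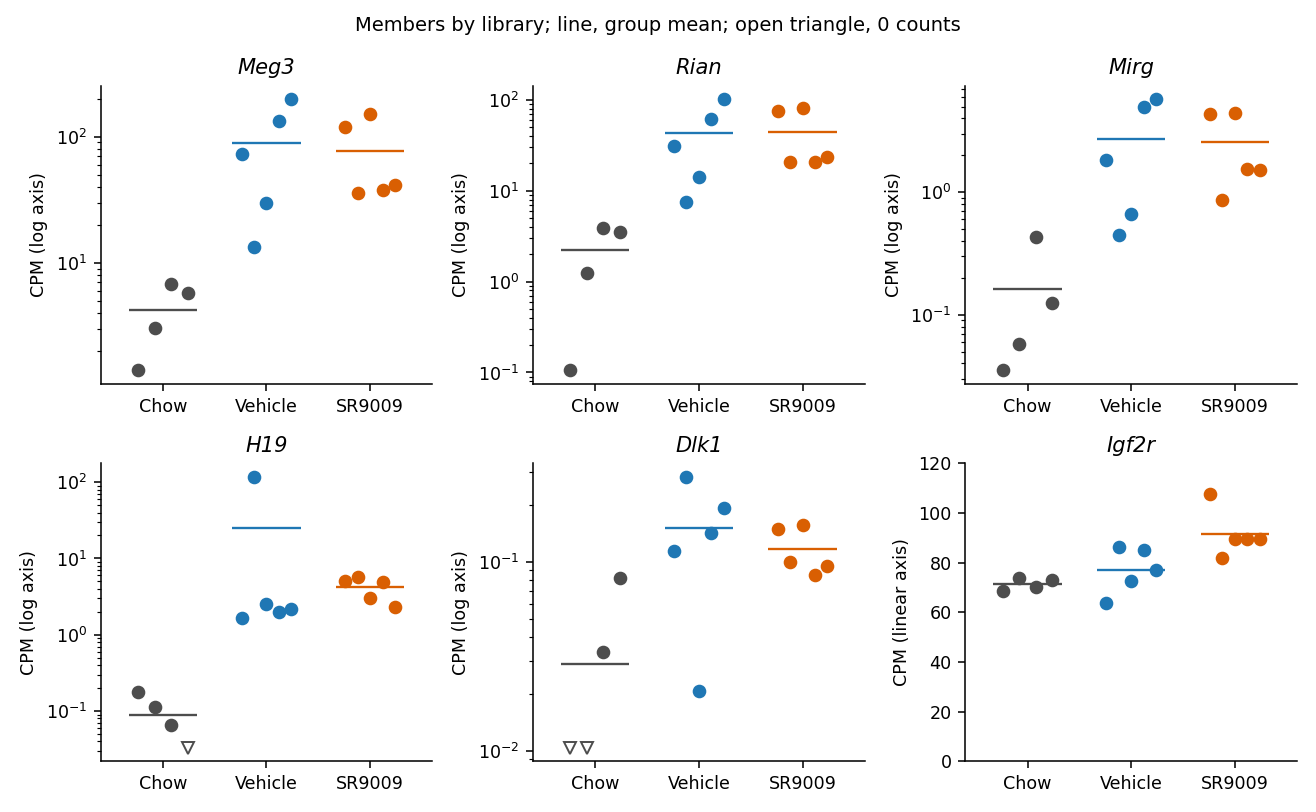
Level of 6 members in each library, in CPM, by group. Each point is 1 library and the line is the group mean, open triangles are libraries with 0 counts drawn below the lowest level above 0, and the axes are logarithmic except for Igf2r. The lowest diet-fed Meg3 value, 13.3 CPM, lies above the highest Chow value, 6.82 CPM, and 1 Vehicle library stands apart in H19 at 118 CPM.

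Meg3, a noncoding RNA known as a brake on growth in several tumours, was at 1.40, 3.04, 6.82 and 5.73 CPM in Chow libraries 1 to 4. In Vehicle libraries 1 to 5 it was at 73.0, 13.3, 30.0, 132 and 197 CPM. The groups did not overlap, although Vehicle 2 was within 1.95 times of the highest Chow library. The share of all genes tested without such overlap was not counted, so here and below a lack of overlap is description only. The fitted log2 fold change was 4.40 ± 0.90 (SE), with an edgeR adjusted p of 0.00121 for 5 against 4 libraries.

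Rian, the host of small nucleolar RNAs and of 3 of the hairpins above, stood at 0.105, 1.26, 3.94 and 3.55 CPM in Chow. The 5 Vehicle libraries had 31.2, 7.53, 14.1, 61.5 and 101 CPM, in the same order of libraries as Meg3. Its log2 fold change was 4.31 ± 0.99 (SE; edgeR adjusted p = 0.00258), without overlap between the groups.

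Mirg, the host of the largest of the microRNA groups counted above, was near the floor in Chow, at 0.0351, 0.0573, 0.430 and 0.124 CPM. Vehicle libraries had 1.83, 0.447, 0.663, 4.94 and 5.72 CPM. The lowest Vehicle library was only 1.04 times the highest Chow library, and the log2 fold change was 4.05 ± 0.99 (SE; edgeR adjusted p = 0.00307).

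Dlk1, the paternally expressed protein gene of the same region, was at the limit of detection. It had 0, 0, 1 and 2 counts in Chow and 5, 12, 1, 7 and 9 counts in Vehicle. Summed and scaled by TMM, the ratio of Vehicle to Chow was 5.79, with a 95% counting interval of 1.82 to 29.4 that leaves out the spread between mice. Vehicle 3 had 1 count and so overlapped Chow. Dlk1 was not tested in the filtered fit. Without the filter its edgeR adjusted p was 0.0761, and DESeq2 gave 0.0451 with a log2 fold change of 2.51.

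Of the 9 genes listed for the Dlk1-Dio3 region, 5 were tested. Of these, 80% were called, 4 higher and none lower, beside 55.2% of all genes tested. The fourth was Dio3os, a noncoding RNA next to the thyroid hormone-inactivating enzyme gene Dio3, with a log2 fold change of 1.83 ± 0.37 (SE; edgeR adjusted p = 0.000575). Wdr25, a gene at the edge of the region, did not pass the test, at -0.16 on the log2 scale (edgeR adjusted p = 0.361). Rtl1, a retrotransposon-derived gene read across from the noncoding transcripts, had 0 counts in each Chow library, 48 in all in Vehicle and 43 in all in SR9009. Dio3 had 3 counts over the Chow libraries and 27 over the Vehicle libraries.

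H19 was at 0.175, 0.115, 0.0662 and 0 CPM in Chow, which is 5, 4, 2 and 0 counts. In Vehicle it was at 1.67, 118, 2.57, 1.96 and 2.16 CPM, and the 118 CPM of Vehicle 2 came from 5005 counts. The other 4 Vehicle libraries had a mean of 2.09 ± 0.378 CPM (SD, n = 4), and the lowest Vehicle library was 9.49 times the highest Chow library. The log2 fold change was 8.03 ± 2.05 (SE; edgeR adjusted p = 0.00504) with Vehicle 2 and 4.45 (edgeR adjusted p = 1.86e-06) without it. Against Chow libraries this close to the floor, the fitted size depends on the prior count. With limma-voom and quality weights, the adjusted p was 0.0885, the highest of 6 other settings, whose lowest was 0.00268.

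Igf2, the growth factor that shares its control element with H19, had 0 counts in each library except Vehicle 1, with 2, and SR9009 5, with 1. No fold is given. A library with 0 counts could still hold up to 0.0607 to 0.124 CPM.

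Of the 20 genes listed for the neighbouring Igf2-H19 and Kcnq1 regions, 13 were tested. Of these, 69.2% were called, 7 higher and 2 lower, beside 55.2% of all genes tested. Besides H19, the higher ones included Cdkn1c, a maternally expressed inhibitor of the cell cycle, with a log2 fold change of 1.92 ± 0.45 (SE; edgeR adjusted p = 0.00181). Kcnq1, a potassium channel subunit gene, had 1.61 ± 0.39 (adjusted p = 0.00246). Kcnq1ot1, the noncoding RNA read antisense to Kcnq1 from the paternal copy, had 0.59 ± 0.21 (adjusted p = 0.0234). Lsp1, a leukocyte actin-binding protein gene, rose by 2.74 on the log2 scale, Tspan32 by 2.11 and Osbpl5 by 1.77. The organic cation transporter-like gene Slc22a18 fell by 0.39 and the tetraspanin gene Cd81 fell by 0.27. Phlda2, Mrpl23, Nap1l4 and Tssc4 did not pass the test.

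Igf2r was nearly level. Chow libraries had 68.6, 73.8, 70.2 and 72.8 CPM, and Vehicle libraries had 63.7, 86.2, 72.7, 84.9 and 77.1 CPM. The log2 fold change was 0.11 ± 0.09 (SE; edgeR adjusted p = 0.341), with a 95% interval of -0.09 to 0.31, and the groups overlapped. Scaling by raw totals gave 0.59 (edgeR adjusted p = 0.000173). That scaling moved the median of all genes from 0.0235 to 0.503, so relative to the median Igf2r changed little under either, and it moved the share of calls that were higher from 54% to 88.3%.

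Airn, the antisense noncoding RNA, was at 0.758 ± 0.259 CPM in Chow (SD, n = 4) and at 4.47 ± 0.914 CPM in Vehicle (SD, n = 5). Its log2 fold change was 2.54 ± 0.28 (SE; edgeR adjusted p = 1.42e-06). Of the 6 genes described for the Igf2r region, 5 were tested. Of these, 60% were called, 2 higher and 1 lower, beside 55.2% of all genes tested. The other gene called higher was Mas1, a G protein-coupled receptor gene for an angiotensin peptide, at 1.53 ± 0.44 on the log2 scale. The lower one was Plg, which encodes plasminogen and is expressed by hepatocytes, at -1.01 ± 0.13. The organic cation transporter gene Slc22a3 did not pass the test.

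**Figure D2:**
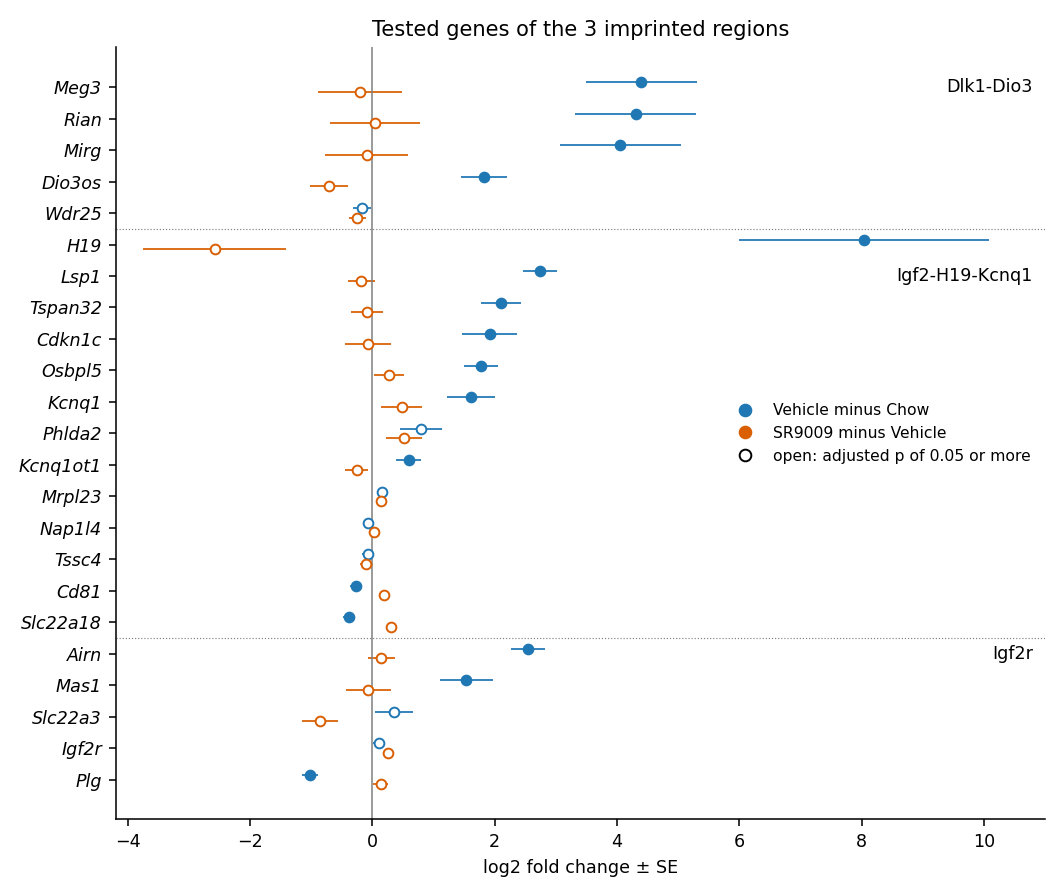
Log2 fold change with its SE for each tested gene described from the 3 imprinted regions, for Vehicle minus Chow and SR9009 minus Vehicle. Filled points have an edgeR adjusted p under 0.05 in their comparison, and no gene is filled for SR9009 minus Vehicle. The 3 noncoding RNAs Meg3, Rian and Mirg lie at 4.05 to 4.40 for Vehicle minus Chow, and H19 has the widest error, 2.05.

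The other genes of the IGF pathway were read from a list of 22, of which 21 were tested, 8 were called higher and 5 lower in Vehicle. Liver is the main source of circulating IGF1. Igf1 fell by 0.98 on the log2 scale. Its carrier subunit Igfals fell by 1.73 and the growth hormone receptor gene Ghr by 1.57. The receptor gene Igf1r, through which IGF1 and IGF2 signal, rose by 2.06, the binding protein gene Igfbp7 by 2.11 and Stc2, an inhibitor of IGF binding protein cleavage, by 3.90. The median of the 21 was 0.873, beside 0.0235 over all genes tested. Of the 21, 61.9% were called, beside 55.2% of all genes tested, with calls in both directions in either set. Igf2 itself stayed below the floor.

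H19 belongs to the fetal genes that adult mouse liver silences, as do Afp and Gpc3, which the repressor Zhx2 controls. Of 16 genes listed for fetal liver and its regulation, 14 were tested, with a median of 2.81. Of these 14, 85.7% were called, 11 higher and 1 lower, beside 55.2% of all genes tested. Named for their known link to H19, after their values were seen, are Gpc3, Zhx2 and Afp. Gpc3 rose by 1.65 (edgeR adjusted p = 0.0303) and Zhx2 fell by 0.43 (edgeR adjusted p = 0.00116). Afp was at 4.97 ± 0.793 CPM in Chow (SD, n = 4) and 6.91 ± 1.83 CPM in Vehicle (SD, n = 5), with an edgeR adjusted p of 0.066. The 3 largest rises on the log2 scale were those of Ly6d at 6.50, Bex1 at 5.26 and Tspan8 at 5.03. Over the Chow libraries Bex1 had only 3 counts, so the fitted size of its rise depends on the prior count. Spink1 had 6 and Trim71 had 9. These genes passed the filter through the diet-fed groups, which favoured higher calls in this list. Epcam, which bile duct cells also express, rose by 3.79. Vehicle 2, the library with the highest H19, had 9.34 CPM of Afp, within the 5.06 to 10.9 CPM of the other diet-fed libraries. It had the highest Ly6d, 172 CPM, and the highest Tspan8, 68.5 CPM, of the 10 diet-fed libraries.

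Markers of other liver cells moved with the same comparison. Myofibroblast markers (15 genes) summed to 62.5 to 117 CPM in Chow and 741 to 1100 CPM in Vehicle. Bile duct markers (12 genes) summed to 182 to 255 CPM in Chow and 520 to 1190 CPM in Vehicle, and macrophage markers (14 genes) to 208 to 665 and 1900 to 2860 CPM. Endothelial markers (15 genes) overlapped, at 481 to 608 and 403 to 636 CPM. No gene of these 4 lists was at 0 in every library. The part of these cells in the rise of the members was not tested.

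SR9009 was compared with Vehicle to ask whether the drug changed the members on the same diet. None of the 5 members tested was called by edgeR or limma-voom, where edgeR called 0.242% of all genes tested, 0.165% higher and 0.077% lower. DESeq2 called none of them either, but it gave no adjusted p for H19 and so could not call H19. Of the 5, H19 and Igf2r had an unadjusted p under 0.05 in edgeR, as did 1323 of the 18181 genes tested. For each member the 2 groups overlapped. The intervals were wide for the 3 noncoding RNAs of the Dlk1-Dio3 region.

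SR9009 libraries 1 to 5 had 119, 35.7, 152, 37.9 and 41.3 CPM of Meg3. Libraries 1 and 3 were high and the other 3 lay close together, all inside the range of Vehicle. The log2 fold change was -0.20 ± 0.69 (SE; edgeR adjusted p = 0.989), a fitted ratio of 0.869 with a 95% interval of 0.309 to 2.45. Rian was at 75.1, 20.6, 81.6, 20.6 and 23.8 CPM, or 0.04 on the log2 scale relative to Vehicle (edgeR adjusted p = 0.995). Mirg was at 4.37, 0.872, 4.42, 1.56 and 1.52 CPM, or -0.10 relative to Vehicle (edgeR adjusted p = 0.993). The signs of these small differences turned when single libraries were left out.

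Dlk1 had 7, 4, 6, 4 and 4 counts in SR9009 libraries. The ratio of SR9009 to Vehicle was 0.79, with a 95% counting interval of 0.452 to 1.36. H19 was at 5.01, 5.65, 3.07, 4.95 and 2.30 CPM, a mean of 4.19 ± 1.43 (SD, n = 5). Its log2 fold change was -2.58 ± 1.17 (SE; edgeR adjusted p = 0.675) with Vehicle 2 and 1.01 (edgeR adjusted p = 0.287) without it. A single Vehicle library therefore set the direction, and neither value passed the test.

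Igf2r was at 108, 82.0, 89.5, 89.5 and 89.3 CPM in SR9009 libraries. SR9009 1 was the highest of all libraries, and SR9009 2 lay inside the Vehicle range. The log2 fold change was 0.25 ± 0.09 (SE; edgeR adjusted p = 0.41), with a 95% interval of 0.07 to 0.44 before adjustment. In 14 fits that each left out 1 library, it ranged from 0.19 to 0.30 and the adjusted p from 0.289 to 0.711.

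SR9009 and Chow were also compared, with the same Chow libraries as above. All 5 members tested were called higher, where 56.2% of all genes tested were called, 30.5% higher and 25.7% lower. The filter again favoured higher calls for Mirg and H19. The log2 fold changes were 4.19 for Meg3, 4.35 for Rian and 3.95 for Mirg, with edgeR adjusted p-values of 0.00157, 0.0024 and 0.00358. Igf2r had 0.36 ± 0.09 (SE; edgeR adjusted p = 0.00373) without overlap between the groups, as its lowest SR9009 library was 1.11 times the highest Chow library. H19 had 5.45 ± 2.13 (SE; edgeR adjusted p = 0.0447). Of 14 fits that each left out 1 library, 9 lost the H19 call, with adjusted p-values up to 0.0961, and it was lost without the low-count filter (adjusted p = 0.098) and with limma-voom (0.071). Leaving out Vehicle 2, which also enters the shared estimate of the spread, gave 1.5e-07. The H19 levels of the 2 groups did not overlap, the lowest SR9009 library being 13.1 times the highest Chow library. Igf2r was thus ordered Chow, Vehicle, SR9009 by mean, and the neighbours in that order did not pass the test.

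Among the 10 diet-fed libraries, Meg3 spanned 13.3 to 197 CPM, a ratio of 14.8, and this spread is why these genes were chosen. It is described without a test. From lowest to highest Meg3, the order was Vehicle 2, Vehicle 3, SR9009 2, SR9009 4, SR9009 5, Vehicle 1, SR9009 1, Vehicle 4, SR9009 3 and Vehicle 5. Both groups stood at low and at high positions. The coefficient of variation was 75.3% for Meg3, 75.7% for Rian and 75.8% for Mirg, against 14% for Igf2r.

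**Figure D3:**
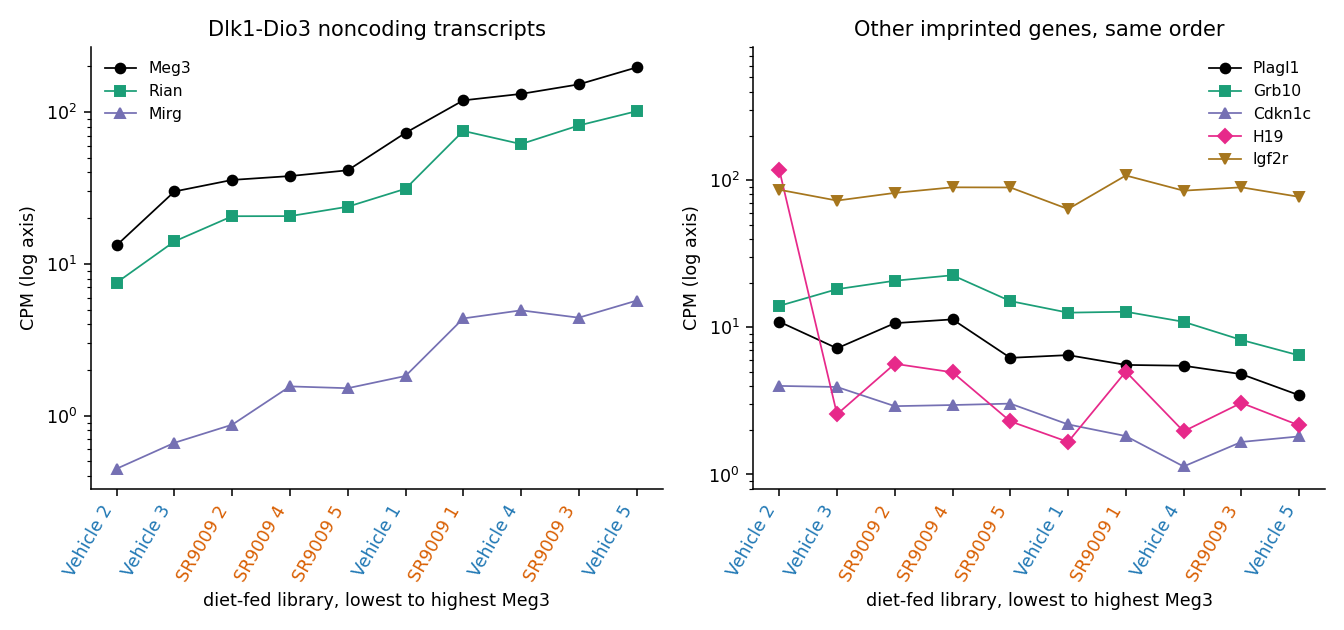
Level in CPM on a logarithmic axis in the 10 diet-fed libraries, ordered from lowest to highest Meg3, with Vehicle names in blue and SR9009 names in orange. Left, Meg3, Rian and Mirg rise together, Meg3 from 13.3 to 197 CPM. Right, Cdkn1c, Plagl1 and Grb10 are lower toward the right, H19 is at 118 CPM in 1 library, and Igf2r lies between 63.7 and 108 CPM.

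Rian and Mirg followed Meg3 from library to library. Over the 10 libraries, Spearman's rho with Meg3 was 0.988 for Rian and 0.976 for Mirg, and Pearson's r of log2 levels was 0.991 and 0.972. Leaving out SR9009 3 and Vehicle 5, the 2 libraries farthest from the Meg3 median, the r values were 0.984 and 0.961. No p is given, since the genes were chosen for this pattern, and the 3 transcripts share libraries, depth and scaling. Rtl1, at 0 to 32 counts a library, had a rho of 0.853.

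Counts of Rian per 100 counts of Meg3, which do not depend on depth, were 42.8, 56.7, 46.9, 46.7 and 51.5 in Vehicle libraries 1 to 5. They were 62.9, 57.7, 53.6, 54.5 and 57.5 in SR9009 libraries 1 to 5. This ratio varied with a coefficient of 11.6% over the diet-fed libraries, while Meg3 itself varied with 75.3%. In Chow it was 41.5, 57.8 and 61.9 in libraries 2 to 4. Chow 1 had 7.5, from 3 Rian counts and 40 Meg3 counts, with an exact 95% counting interval of 1.48 to 23.5 that lies below the other 13 libraries' values. The mean ratio was 57.2 in SR9009 and 48.9 in Vehicle, a difference of 8.32 (exact two-sided permutation test, p = 0.0317). Adjusted over the 2 ratios compared, p was 0.0634, and the smallest p that 5 against 5 libraries allow is 0.00794. The ratios were compared after these genes had been chosen with their values in view, so their p-values are no independent evidence of a difference. SR9009 was above the Vehicle mean in 5 of 5 libraries, but the groups overlapped at Vehicle 2. The corresponding ratio for Mirg was 3.36 in SR9009 and 2.95 in Vehicle (exact permutation p = 0.349). Because counts are not per length, these ratios are no comparison of levels between genes.

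**Figure D4:**
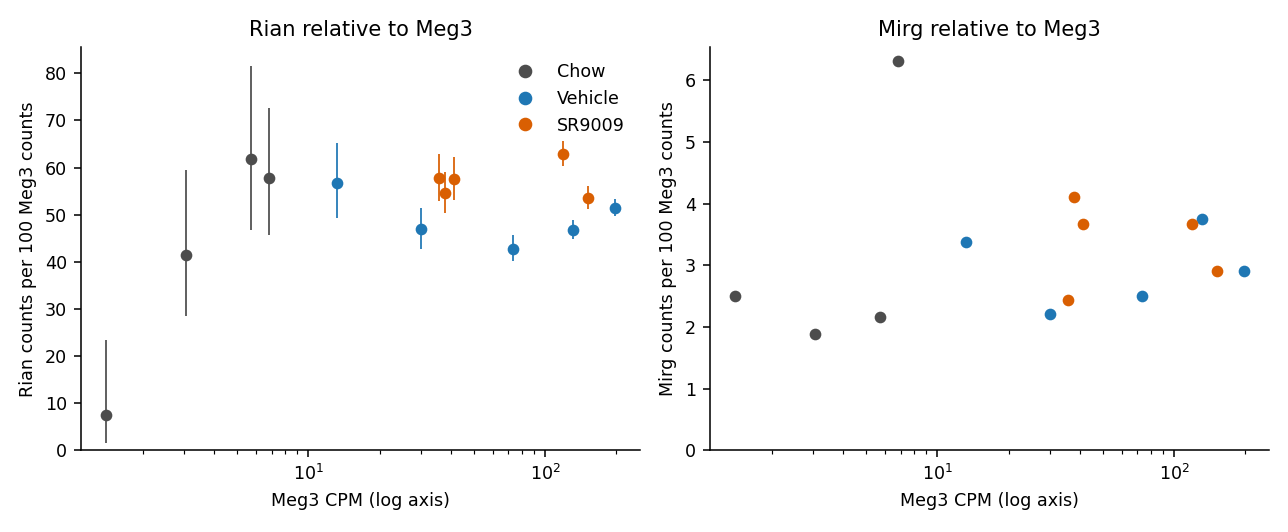
Counts of Rian (left) and Mirg (right) per 100 counts of Meg3 against Meg3 level in CPM on a logarithmic axis, 1 point a library, coloured by group. Bars on the left are exact 95% counting intervals. Diet-fed ratios for Rian lie between 42.8 and 62.9 over the whole range of Meg3, and Chow 1 lies at 7.5.

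The other members did not share that order. H19 had a rho of -0.552 with Meg3, and its highest library, Vehicle 2, was the lowest in Meg3. Igf2r had a rho of 0.164, and Dlk1, at 12 counts or fewer a library, had 0.406. Another 46 tested genes were listed as imprinted or as neighbours of imprinted genes. Of these, 19 had a positive Pearson's r with Meg3 and 27 a negative one, with a median of -0.299. Of all genes tested, 50.3% were positive. Cdkn1c was at 4.0, 3.93, 2.91, 2.97, 3.03, 2.19, 1.82, 1.13, 1.66 and 1.81 CPM in the order given above, from the lowest to the highest Meg3, with a rho of -0.903. Plagl1, a zinc finger transcription factor gene that belongs to the same growth network, was at 10.9, 7.21, 10.7, 11.3, 6.21, 6.48, 5.56, 5.49, 4.81 and 3.46 CPM, also with a rho of -0.903. Grb10, which encodes an adaptor that dampens insulin and IGF1 receptor signalling and is described here after its values were seen, had a rho of -0.818. Snrpn, Plg and Tfpi2 ran the other way, with rho of 0.83, 0.818 and 0.782, and Snrpn too is named after its values were seen.

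Several cell type and library measures fell along the order of rising Meg3. Bile duct markers summed to 1080 CPM in Vehicle 2 and 520 CPM in Vehicle 5, the libraries at the 2 ends, with a rho of -0.891 to Meg3. Each of the 12 genes of that list had a negative r. Endothelial markers had a rho of -0.745, with 1 of 15 positive, and myofibroblast markers a rho of -0.612, with 1 of 13 positive. Summed red cell markers had a rho of -0.709 and ranged from 122 to 916 CPM. Macrophage markers had -0.661, lymphocyte markers -0.353, quiescent stellate cell markers -0.261, mesothelial markers 0.0182 and hepatocyte markers 0.37. The mesothelial sum hides its genes: of the 10 tested, 9 had a negative rho with Meg3 and 6 a negative r. Without SR9009 3 and Vehicle 5, rho was -0.786 for bile duct, -0.524 for endothelial, -0.262 for myofibroblast and -0.548 for red cell markers. The 4 libraries with the highest Meg3, from SR9009 1 to Vehicle 5, were the same 4 that had few receptor genes detected. Within the 6 libraries with many, rho with Meg3 was 1 for Rian, 0.943 for Mirg, -0.771 for Cdkn1c, -0.543 for Plagl1, -0.2 for Grb10, -0.486 for bile duct markers, 0.143 for endothelial markers and 0.371 for myofibroblast markers. The 4 libraries with few were too few for a value. Within these classes, the log2 fold change of Meg3 in SR9009 over Vehicle was -0.27 in the 4 libraries with few and -0.03 in the 6 with many (edgeR adjusted p = 0.953 and 0.993). The class with few set SR9009 1 and SR9009 3 against Vehicle 4 and Vehicle 5 only. The classes were chosen after seeing the data and also divide the libraries by Meg3 level, so these values cannot decide whether the drug changed Meg3. Whether these measures have a part in the spread of Meg3 was not tested.

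Genes of the liver most like Meg3 over the 10 diet-fed libraries were sought among 12717 genes with a mean of at least 1 CPM, by Pearson's r of log2 levels. The members, genes without a symbol and predicted or RIKEN-numbered genes were left out of this search. Rian and Mirg, at 0.991 and 0.972, lie above each gene named here for Meg3. The 8 highest were Hsd3b2 (0.954), Slc16a10 (0.952), Acsm5 (0.95), Smarca2 (0.948), Xylb (0.942), Adh4 (0.939), C1s1 (0.933) and Plvap (0.932). In Vehicle versus Chow all but Plvap fell, with log2 fold changes from -0.33 for Xylb to -2.16 for Hsd3b2, whereas Meg3 rose. Plvap rose by 0.50. Each of these changes had an edgeR adjusted p under 0.05. Of the 8, 3 were also among the 8 highest by Spearman's rho, and 1 of the 8 when Vehicle 2 was left out. Hsd3b2 and Adh4 encode enzymes of steroid and alcohol metabolism, Slc16a10 an aromatic amino acid transporter and Smarca2 a chromatin remodelling ATPase. For H19 the 3 highest were Dync1i2 (0.964), Gtdc1 (0.954) and Inava (0.947), and none of its 8 stayed among the 8 highest by Spearman's rho or without Vehicle 2. For Igf2r they were Ispd (0.953), Atp2b2 (0.947) and Rbm34 (0.936), of whose 8 none was shared by Spearman's rho and 3 without Vehicle 2.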

How the data were processed

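The labels describe 15 samples of bulk liver RNA in 3 groups, and 14 were used. Raw counts, 1 row per Ensembl gene, are what the authors deposited, with no normalization. The submitters' processing notes name STAR 2.7.11b and GRCm39; a counting tool, annotation release and strand setting were not found in the sources used here. Chow 5 had no column among the counts used here, so it was not analysed. Symbols came from a reference table and matched 90.8% of identifiers, holding 99.6% of counts. RefSeq sequences are of GRCm38.p6, another build than that of the counts.

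The count model was that of edgeR 4.0.16 (R 4.3.3). Its function filterByExpr, at a minimum count of 10 and minimum total of 15, left 18181 genes. The filter ran over all groups, so a gene could pass through the group where it is high. Mirg and H19 did so, as did Bex1, Spink1 and Trim71. Libraries were scaled by TMM (factors 0.753 to 0.824 in Chow, 1.02 to 1.15 in diet-fed libraries). Robust quasi-likelihood fits took 1 spread per gene from all 3 groups. The Benjamini-Hochberg adjustment ran over the whole set of tested genes, and adjusted p-values under 0.05 were called. Each standard error is the log2 fold change divided by the root of its F. Counting intervals and the floor of 3 counts cover counting error only. Correlations used log2 CPM with a prior count of 2 for likeness, or ranks.

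The members and the lists were chosen with earlier results of these data known. The text names the 7 members, each tested gene of their regions, up to 6 genes with the smallest adjusted p from each other list, the 8 most alike genes of Meg3, H19 and Igf2r, and the highest markers; exceptions are marked. A gene of the Igf2r region list is not reported here and was left out of the list counts. The 26 library pairs within groups differed beyond counting error, with a mean chi-square per gene of at least 15.7. The pipeline was tested on simulated data. Alternatives were DESeq2 1.42.0, limma-voom (limma 3.58.1), other scalings and filters, a replicate block and leaving out each library.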

Additional observations from a re-analysis of the deposited data

Results flagged for a closer look

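The tested genes of the described regions, with Dlk1, which did not pass the filter on low counts, made 24 genes. Each was examined for a library far from the others of its group, in 72 groups of 4 or 5 libraries. Dixon's ratio passed its 95% critical value in 6, where chance alone flags about 1 group in 20. H19 in Vehicle 2 was at 118 CPM, while the other 4 Vehicle libraries were at 1.67 to 2.57 CPM. Slc22a3 was also high in Vehicle 2, at 14.8 CPM. Tspan32 was high in SR9009 2, at 3.16 CPM. In Chow, Dio3os was high in library 2 at 0.573 CPM, Slc22a18 in library 1 at 161 CPM and Mrpl23 in library 1 at 25.5 CPM.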

How the results depend on the processing

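The calls of Meg3, Rian and Mirg against Chow kept their direction and stayed past the threshold under DESeq2, limma-voom, DESeq2 size factors, raw totals, no filter, only the groups compared, the replicate block and leaving out each library. In SR9009 versus Vehicle the number of genes called was 44 in the reported fit. It was 206 with DESeq2, 15 with the replicate block, 23 within the diet-fed libraries with many receptor genes (chosen after seeing the data), and 18 to 56 when 1 library was left out. DESeq2 called 1 imprinted gene there, H13, named for that, at 0.309 on the log2 scale (DESeq2 adjusted p = 0.0414). Replicate numbers do not pair the libraries: of 13 pairs with the same number, 3 had a correlation of deviations over 0.1, in a range of -0.362 to 0.196. With the replicate block, members called stayed at 4, 0 and 5, and small differences between SR9009 and Vehicle turned sign, to 0.080 for Meg3 and 0.12 for Mirg on the log2 scale. Other signs that turned in that comparison were Mirg with limma-voom (0.13) and within the libraries with many receptor genes (0.41), Rian within those with few (-0.050), and H19 with limma-voom (0.29) and within those with few (0.98). Leaving out 1 library gave log2 fold changes of -0.60 to 0.32 for Meg3, -0.30 to 0.63 for Rian, -0.39 to 0.37 for Mirg and -2.89 to 1.01 for H19. None of these passed the threshold. Igf2r in Vehicle versus Chow passed it with raw totals only. For H19, DESeq2 gave no adjusted p. Causes were not tested. Dlk1 and Igf2 were limited by depth, at 12 counts or fewer a library.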

Other observations

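Beyond the 3 regions, 40 other genes were listed as imprinted or as neighbours of imprinted genes. In Vehicle versus Chow 28 of them were tested, and 5 were called higher and 12 lower by edgeR. Together with the non-member genes of the 3 regions, 29 of 46 tested genes were called (63%), beside 55.2% of all genes tested. The median log2 fold change of the 46 was -0.08. Slc38a4, a paternally expressed amino acid transporter gene, went from 1400 ± 49.3 CPM in Chow (SD, n = 4) to 699 ± 51.2 CPM in Vehicle (SD, n = 5), a log2 fold change of -1.0. Of the genes near Peg10, Tfpi2, a protease inhibitor gene, fell by 1.30, Casd1, a sialic acid acetyltransferase gene, fell by 0.92, and Ppp1r9a, an actin-binding protein gene, fell by 1.05. Asb4 of the same cluster rose by 3.03 and Plagl1 by 2.18. In SR9009 versus Vehicle none of the 46 was called by edgeR and 1 by DESeq2, with 6 of the 46 at an unadjusted p under 0.05, beside 1323 of 18181 genes tested.

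A list of genes that keep imprints, or that add, keep or remove DNA methylation, had 19 tested. Of these, 8 were called higher and 3 lower in Vehicle versus Chow. That share, 57.9%, is close to the 55.2% called among all genes tested. Dnmt1, the maintenance DNA methyltransferase gene, rose by 0.56 on the log2 scale, and Uhrf1, which brings its product to newly copied DNA, by 3.28. Dnmt3a, a de novo methyltransferase gene, rose by 1.15 and Tet1, which starts the removal of methylation, by 3.98 from a Chow mean of 0.0724 CPM. Zfp445, a zinc finger protein gene that protects imprints, fell by 1.31, from 173 to 69.5 CPM. Cell cycle markers rose in the same comparison, 14 of 14 tested, from summed levels of 34.2 to 38.1 CPM in Chow to 109 to 158 CPM in Vehicle, and their part in the rise of Dnmt1 and Uhrf1 was not tested. DNA methylation was not measured.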
